A study of Mus musculus with 6 samples.

Results

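Rab GTPases were described here in mouse bone marrow cells grown toward dendritic cells with and without midkine. The members were all genes of the deposited table whose symbol starts with Rab and a digit, leaving out any marked as pseudogenes by -ps, which gave 62 of 15443 gene symbols. The name does not pick out GTPases alone: 50 of the 62 encode Rab GTPases, and 12 encode proteins or RNAs named after a Rab, namely 5 effectors (Rab11fip1 to Rab11fip5), 2 exchange factors (Rab3il1, Rab3ip), 2 subunits of a GTPase-activating protein (Rab3gap1, Rab3gap2), Rab5if and the non-coding RNAs Rab10os and Rab26os. The study had 3 midkine libraries (replicates 3, 4 and 5), in which cells were kept for 3 days with FLT3LG at 50 ng/ml and recombinant human midkine at 10 ng/ml, and 3 control libraries (replicates 1, 2 and 4), kept for 3 days with FLT3LG at 50 ng/ml alone. All cells came from wild-type C57BL/6J mice, and FLT3LG is the cytokine that drives dendritic cell growth from progenitors. Midkine is a secreted heparin-binding growth factor, and its effect on these cultures is the question that the design addresses. No label tells whether a replicate was its own mouse or its own culture dish. The p-values therefore reflect spread among these 6 samples alone, and that spread could be technical. Because these are bulk cultures, a change in the share of a cell type and a change in RNA per cell cannot be told apart.

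Rab GTPases are small switch proteins that sit on the membranes of vesicles and organelles, each on its own set. An exchange factor loads them with GTP and so turns them on, a GTPase-activating protein turns them off, and effectors such as tethers and motors bind the active form. A prenyl tail, added with the help of an escort protein, holds them on the membrane, and a GDP dissociation inhibitor takes them off it. In dendritic cells, macrophages and neutrophils they route phagosomes, lysosomes, granules and antigen.

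Recovered reads ranged from 5985684 to 7233960 per library. Midkine 5 stood apart, with a score of 86.0 on the first principal component (57.1% of the variance) against −28.2 to 1.94 in the other 5 libraries, so the limma tests of called members are given with and without it. Mitochondrial ribosomal RNA took 4.12, 4.69 and 0.377% of reads in midkine 3, 4 and 5, against 4.91, 6.16 and 5.67% in control 1, 2 and 4. Midkine 5 was by far the lowest and all 3 midkine libraries lay below each control, and the part of this in the Rab values was not tested. Summed neutrophil markers took 2.88 to 3.07% in midkine and 2.06 to 2.347% in control libraries (9 of 14 higher and 0 lower with no overlap between the groups), those of monocytes and macrophages 0.608 to 0.971% in midkine and 0.532 to 0.691% in control libraries (6 higher and 2 lower of 14) and those of conventional dendritic cells 0.139 to 0.213% in midkine and 0.230 to 0.262% in control libraries (0 higher and 9 lower of 14). No marker of these 3 lists was at 0 in any library. As a background for these counts, 15.5% of all 13543 genes tested were higher and 15.3% lower with no overlap. Mast cell, basophil and eosinophil markers took 0.0279 to 0.0449% in midkine and 0.0171 to 0.0209% in control libraries (4 higher of 9), and those of megakaryocytes and platelets 0.171 to 0.233% in midkine and 0.137 to 0.150% in control libraries (3 higher of 10). Plasmacytoid dendritic cell markers took 0.0798 to 0.0895% in midkine and 0.0958 to 0.114% in control libraries (0 higher and 4 lower of 9), with Klk1 at 0 in a library. Of these 6 sums, all but that of monocytes and macrophages were separate between the groups. The sums of the B cell, erythroid, T and NK cell, and stroma and endothelium lists overlapped between the groups. Many Rab values below were separate, and the part of any of these cell types in them was not tested. Of the T and NK cell list, Cd3e, Cd3g, Gzma and Ncr1 are not among the gene symbols used here, and the 6 others took 0.00893 to 0.0237% in midkine and 0.0144 to 0.0198% in control libraries.

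The share of reads from Rab GTPases was higher in each midkine library than in any control. They made up 0.456, 0.455 and 0.485% of reads in midkine 3, 4 and 5, against 0.396, 0.378 and 0.389% in control 1, 2 and 4. The mean was 0.466 ± 0.0171% in midkine and 0.388 ± 0.00944% in control libraries (SD, n = 3 per group). The exact two-sided permutation test over samples gave p = 0.1, the smallest that 3 against 3 allows, so the design cannot reach 0.05. Leaving out mitochondrial genes and the 50 most abundant genes from the total gave 0.607, 0.618 and 0.612% in the midkine libraries, against 0.532, 0.522 and 0.540% in the controls.

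Seen gene by gene, 60 members had a mean of at least 5 normalized counts and were tested with limma among 13543 genes. Rab15 and Rab26 were below that level. Rab26 had 0.967, 1.06 and 0.908 in the midkine libraries, against 4.10, 4.09 and 3.94 in the controls, which is 1 read per midkine library and 4 reads per control library, and Rab15 had 0 to 3 reads in each of the 6. With all 6 libraries limma called 0 members, as it called 0 genes of the whole table (0.0%). Also edgeR called 0 members, with 0.0738% of all genes called. At an unadjusted p under 0.05 there were 17 members higher and 4 lower of 60, where 19.7% of all genes tested passed, 10.4% higher and 9.3% lower. DESeq2 on the recovered reads called 7 members higher (Rab11a, Rab1a, Rab20, Rab28, Rab31, Rab32 and Rab3il1) and 0 lower. Of all genes with an adjusted p it called 5.92%, 3.97% higher and 1.95% lower. The DESeq2 adjusted p of these 7 ran from 0.00440 for Rab11a to 0.0317 for Rab1a.

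Without midkine 5, limma called 20 of 60 members, 17 higher (28.3%) and 3 lower (5.00%). Of all genes tested the same fit called 18.4%, 9.92% higher and 8.52% lower. On these 5 libraries edgeR called 18 members higher and 3 lower, against 18.5% of all genes (10.5% higher, 7.97% lower). The DESeq2 calls were 12 higher and 2 lower, against 15.4% (9.3% higher, 6.14% lower). Among the 48 GTPases tested by limma, 16 rose (33.3%) and 1, Rab43, fell (2.08%). The calls lean on how limma estimates the variance: with no trend of variance on level, the fit without midkine 5 called 1 member, Rab26os, and 0.473% of all genes. Without midkine 4 as well, 7 members were called, with the single midkine library left assumed to vary like the controls. These were Rab11a, Rab1a, Rab7, Rab7b, Rab28, Rab29 and Rab26os, and all of them but Rab7b were called whichever 1 further library was left out. Rab7b lost its call without midkine 3 or control 4. Calls were also lost without midkine 3 (Rab11b, Rab2a, Rab3ip), control 1 (Rab11b, Rab18, Rab2a, Rab3ip, Rab43, Rab5b), control 2 (Rab11b, Rab18, Rab2a, Rab5b) and control 4 (Rab11b, Rab18, Rab2a, Rab3ip, Rab5b). For these fits with 1 more library left out, the share of all genes called is not given here. The lost calls are therefore not read as particular to Rab members. GTPases were more abundant than most genes, with a median level of 366 normalized counts against 117 over all genes tested. At a mean of at least 100 normalized counts, 13 of 32 GTPases were called higher (40.6%) and 1 lower (3.12%), where all genes at that level had 14.8% higher and 10.8% lower.

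Midkine and control values were fully separate, with the 6 libraries, for 27 of 60 members, 20 higher (33.3%) and 7 lower (11.7%). Over all genes tested it was 30.8%, 15.5% higher and 15.3% lower. Among the GTPases 17 were higher, namely those called higher other than Rab11b and in addition Rab1b and Rab4a, and 3 were lower (Rab8a, Rab39 and Rab43). The median log2 fold change, midkine minus control, of the 48 GTPases was 0.19 with 6 libraries and 0.19 without midkine 5, beside −0.00 and −0.00 over all genes tested. By library, against the control mean, the median over the GTPases was 0.19, 0.20 and 0.15 in midkine 3, 4 and 5, and it lay above 0 in all 3.

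**Figure D1:**
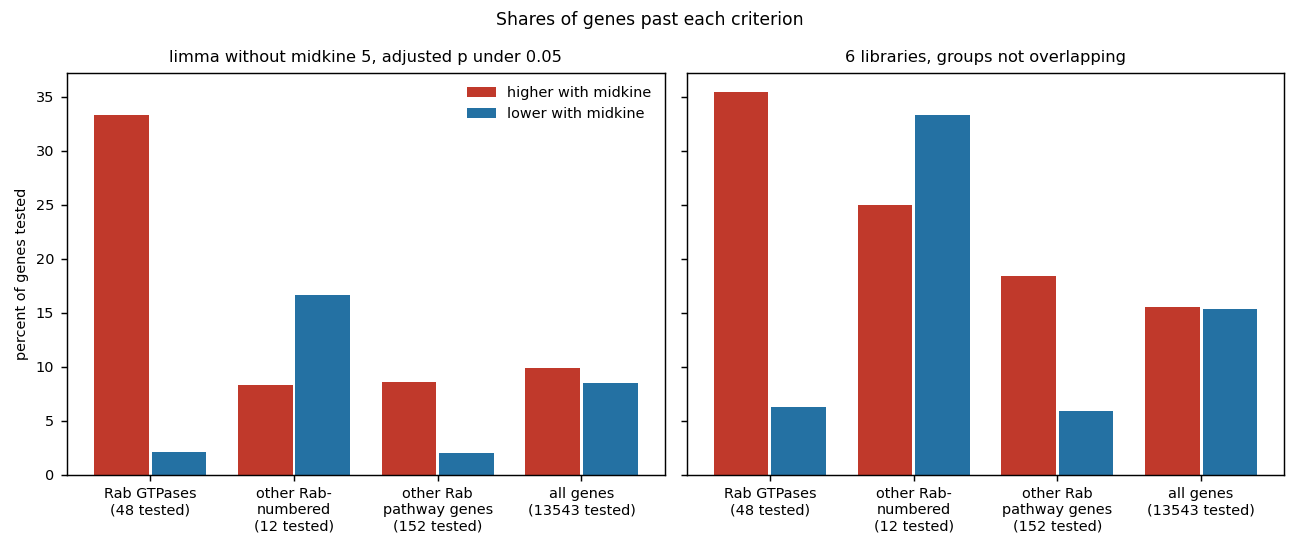
Percent of genes tested that were higher (red) or lower (blue) with midkine, on the left as called by limma without midkine 5 (adjusted p under 0.05) and on the right by groups that do not overlap with all 6 libraries; the bars stand for the 48 Rab GTPases, the 12 other Rab-numbered genes, 152 further genes of the Rab pathway and all 13543 genes tested. The red bar of the GTPases reaches 33.3% on the left and 35.4% on the right, against 9.92% and 15.5% over all genes.

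Promoter windows are shown for 4 GTPases that rose together without midkine 5 and for Rab3ip, which fell, so that their start regions can be compared. RefSeq windows on GRCm38.p6, 250 bases before to 50 after the start of transcription, were matched by symbol for 49 of 62 members. Each is written 5′ to 3′ along the gene, and capitals mark matches, on either strand, to the motifs listed after them.
Rab11a (chr9:64737707-64738006, minus strand): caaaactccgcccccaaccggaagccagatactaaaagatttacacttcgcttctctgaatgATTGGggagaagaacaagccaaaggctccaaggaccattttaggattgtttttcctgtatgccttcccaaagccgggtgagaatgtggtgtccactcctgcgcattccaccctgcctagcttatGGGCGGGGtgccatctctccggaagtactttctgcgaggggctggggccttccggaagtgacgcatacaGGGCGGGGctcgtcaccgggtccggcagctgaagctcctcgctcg
Rab31 (chr17:65772703-65773002, minus strand): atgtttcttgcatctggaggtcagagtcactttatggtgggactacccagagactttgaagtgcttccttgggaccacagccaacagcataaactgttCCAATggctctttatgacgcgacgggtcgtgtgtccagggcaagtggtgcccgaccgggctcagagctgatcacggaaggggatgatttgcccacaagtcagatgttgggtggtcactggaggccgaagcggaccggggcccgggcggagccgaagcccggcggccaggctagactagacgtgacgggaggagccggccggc
Rab20 (chr8:11478591-11478890, minus strand): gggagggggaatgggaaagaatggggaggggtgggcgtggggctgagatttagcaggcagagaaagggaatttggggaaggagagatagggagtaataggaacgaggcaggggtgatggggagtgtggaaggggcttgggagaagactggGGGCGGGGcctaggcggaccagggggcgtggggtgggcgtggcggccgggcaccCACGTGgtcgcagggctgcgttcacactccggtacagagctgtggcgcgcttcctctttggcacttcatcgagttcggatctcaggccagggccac
Rab32 (chr10:10558158-10558457, minus strand): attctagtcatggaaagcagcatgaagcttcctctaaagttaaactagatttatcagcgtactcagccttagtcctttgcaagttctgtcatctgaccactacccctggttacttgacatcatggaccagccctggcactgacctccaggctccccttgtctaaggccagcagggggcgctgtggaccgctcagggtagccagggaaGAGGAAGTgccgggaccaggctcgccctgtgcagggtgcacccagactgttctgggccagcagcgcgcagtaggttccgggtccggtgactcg
Rab3ip (chr10:116950404-116950703, minus strand): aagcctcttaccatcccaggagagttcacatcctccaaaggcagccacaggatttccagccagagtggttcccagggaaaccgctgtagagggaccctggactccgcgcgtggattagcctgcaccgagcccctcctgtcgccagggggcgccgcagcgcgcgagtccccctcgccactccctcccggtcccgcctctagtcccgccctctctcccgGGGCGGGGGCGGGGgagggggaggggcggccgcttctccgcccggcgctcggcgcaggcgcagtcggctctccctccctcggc
The capitals are CCAAT (NF-Y) and GGGCGGGG (SP and KLF factors) in Rab11a, CCAAT in Rab31, GGGCGGGG and the E-box CACGTG in Rab20, GAGGAAGT (PU.1, a master factor of myeloid cells) in Rab32, and overlapping copies of GGGCGGGG in Rab3ip. ATTGG is CCAAT read on the other strand. For these shares, all genes are the 27025 with a RefSeq window, whether or not they were tested here. A gene was counted if any of its windows matched, and the 49 members had 67 windows of 32851. Of 8 motifs searched on both strands, PU.1 GAGGAAGT was in 3 of 49 members (6.12%) and 3.69% of all genes. The E-box CACGTG was in 9 of 49 members (18.4%) and 8.09% of all genes. The CLEAR element read by TFEB in lysosomal genes, which contains an E-box, was in 3 of 49 members (6.12%) and 0.370% of all genes, namely Rab5a, Rab21 and Rab24, none of which limma called. AP-1 TGANTCA was in 2 of 49 members (4.08%) and 8.97% of all genes, the cyclic AMP element TGACGTCA in 2 of 49 members (4.08%) and 2.03% of all genes and the C/EBP motif TTGCGNAA in 1 of 49 members (2.04%) and 0.918% of all genes. CCAAT was in 27 of 49 members (55.1%) and 41.1% of all genes, and GGGCGGGG in 24 of 49 members (49.0%) and 19.6% of all genes. A match is a description of letters and was given no test. The 5 windows share no single one of these motifs.

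Reads near the 3′ end of transcripts were counted, so the level of a gene is not divided by its length. On that scale Rab5c and Rab14 led the GTPases, with 11.5% and 11.3% of all GTPase reads over the 6 libraries. With Rab7b, Rab7, Rab10, Rab24 and Rab8a they made up 53.2%. Of these 7, Rab7 and Rab7b rose in the fit without midkine 5 and the other 5 did not pass.

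Of the 7 early endosome GTPases, Rab20, Rab31 and Rab5b rose without midkine 5 (42.9%, against 9.92% of all genes tested). The other 4 did not pass. Rab20, which works on phagosomes and early endosomes (chromosome 8, 11453518 to 11478710, minus strand of GRCm38), had 59.9, 114 and 90.8 normalized counts in midkine 3, 4 and 5, against 45.1, 38.9 and 36.5 in control 1, 2 and 4. Each midkine value was above each control, and the midkine values spread more widely than the controls. Rab20 differed by 1.03 ± 0.245 (SE) on the log2 scale without midkine 5 (limma adjusted p = 0.00700) and by 1.07 ± 0.265 with all 6 libraries (adjusted p = 0.105). Without midkine 4 as well, the log2 fold change of Rab20 was 0.57 and the call was lost. Rab31, a relative of Rab22a that moves cargo between the trans-Golgi and endosomes (chromosome 17, 65651729 to 65772752, minus strand of GRCm38), had 458, 603 and 678 normalized counts in midkine 3, 4 and 5, against 342, 295 and 360.0 in control 1, 2 and 4. Again the groups did not overlap, and midkine 5 was highest. For Rab31, limma gave a log2 fold change of 0.67 ± 0.132 (SE) without midkine 5 (adjusted p = 0.00183) and 0.79 ± 0.186 with all 6 libraries (adjusted p = 0.0962). Rab5b, one of the 3 forms of Rab5 that drive the fusion of early endosomes, had 474, 546 and 1986 normalized counts in midkine 3, 4 and 5, against 418, 387 and 382 in control 1, 2 and 4. Midkine 5 alone held a level far above the other libraries, and the fold change was larger with it than without. The log2 fold change of Rab5b was 0.36 ± 0.113 (SE) without midkine 5 (limma adjusted p = 0.0312) and 1.02 ± 0.476 with all 6 (adjusted p = 0.281). Rab5c behaved likewise in that library, with 2832, 2570.4 and 5313 normalized counts in midkine 3, 4 and 5, against 2694, 2314 and 2737 in control 1, 2 and 4. The Rab5c groups overlapped both with all 6 libraries and without midkine 5. Rab5a had 289 to 411 in midkine and 283 to 316 in control libraries, Rab21 533 to 764 in midkine and 699.5 to 752 in control libraries and Rab22a 255 to 302 in midkine and 263 to 286 in control libraries, all with overlapping groups when the 6 libraries were used. Summed over the 7 genes the normalized counts were 5209.6, 5259 and 9144 in midkine 3, 4 and 5, against 4796, 4351 and 4813 in control 1, 2 and 4, with midkine 5 far above the rest.

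Of the 5 GTPases of the late endosome and lysosome group, Rab7 and Rab7b rose without midkine 5 (40.0%, against 9.92% of all genes tested). Rab9, Rab24 and Rab34 did not pass. Rab7, the switch for late endosome and phagosome fusion with lysosomes, had 2262, 2240.0 and 1793 normalized counts in midkine 3, 4 and 5, against 1638, 1622 and 1716 in control 1, 2 and 4. For Rab7, limma gave a log2 fold change of 0.44 without midkine 5 (adjusted p = 0.00330) and 0.33 with all 6 libraries (adjusted p = 0.267). The groups did not overlap, and midkine 5 lay only a little above the highest control. Rab7b, a separate gene that carries cargo from late endosomes to the Golgi and dampens Toll-like receptor signals in macrophages, had 2430.3, 2164 and 2299 normalized counts in midkine 3, 4 and 5, against 1861, 1861 and 1559 in control 1, 2 and 4. Its 3 midkine values were close to each other and above the controls. For Rab7b, limma gave a log2 fold change of 0.39 without midkine 5 (adjusted p = 0.0169) and 0.39 with all 6 libraries (adjusted p = 0.206). Rab24, linked to autophagy, had 1111 to 1339 in midkine and 1289.6 to 1386 in control libraries, and its groups overlapped. Rab9, of late endosome to Golgi transport, had 65.7 to 90.8 in midkine and 59.2 to 70.8 in control libraries, and Rab34, of the Golgi and lysosome position, had 24.2 to 47.2 in midkine and 34.8 to 46.2 in control libraries, also with overlap.

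Among the GTPases of granules and lysosome-related organelles, the pair Rab32 and Rab38 and also Rab29 rose without midkine 5. These were 33.3% of the 9 tested, against 9.92% of all genes tested, and the other 6 did not pass. Rab32 and Rab38 are close relatives that send enzymes to melanosomes, platelet granules and pathogen-containing vacuoles. Rab32 (chromosome 10, 10545002 to 10558265, minus strand of GRCm38) had 707, 950.1 and 1018 normalized counts in midkine 3, 4 and 5, against 566, 511 and 559 in control 1, 2 and 4, and Rab38 (chromosome 7, 88430273 to 88491572, plus strand of GRCm38) had 40.6, 58.1 and 43.6 in the midkine libraries, against 28.7, 24.5 and 23.7 in the controls. Both were higher in each midkine library, Rab38 at far fewer counts. Rab32 differed by 0.59 ± 0.122 (SE) on the log2 scale without midkine 5 (limma adjusted p = 0.00268) and by 0.69 ± 0.174 with all 6 libraries (adjusted p = 0.1101). Without midkine 4 as well, the log2 fold change of Rab32 was 0.37 and the call was lost. For Rab38, limma gave a log2 fold change of 0.90 without midkine 5 (adjusted p = 0.0195) and 0.85 with all 6 libraries (adjusted p = 0.134). Rab29, a relative of both that recruits the kinase LRRK2 to membranes, had 476, 460.3 and 366 normalized counts in midkine 3, 4 and 5, against 312, 341 and 316 in control 1, 2 and 4, without overlap and with midkine 5 nearest to the controls. The log2 fold change of Rab29 was 0.54 without midkine 5 (limma adjusted p = 0.00267) and 0.42 with all 6 (adjusted p = 0.213). Of the GTPases of regulated secretion, Rab27a had 326 to 435 in midkine and 403 to 472 in control libraries, Rab27b 156 to 231 in midkine and 183 to 229 in control libraries, Rab3d 239 to 363 in midkine and 298 to 331 in control libraries, Rab37 32.9 to 49.0 in midkine and 29.7 to 35.9 in control libraries and Rab44 162 to 261 in midkine and 180.0 to 217 in control libraries. These 5 overlapped between the groups. Rab3a, named after its values were seen, was high in midkine 5 alone, with 18.4, 21.1 and 47.2 in the midkine libraries, against 20.5, 16.4 and 16.8 in the controls.

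In recycling and plasma membrane traffic, Rab11a, Rab8b and Rab11b rose without midkine 5, of 11 tested (27.3%, against 9.92% of all genes tested). Rab11a, the main GTPase of recycling endosomes (chromosome 9, 64715299 to 64737758, minus strand of GRCm38), had 667, 791 and 978 normalized counts in midkine 3, 4 and 5, against 458, 406 and 476 in control 1, 2 and 4. It had the smallest limma p of all members with 6 libraries. For Rab11a, limma gave a log2 fold change of 0.70 ± 0.115 (SE) without midkine 5 (adjusted p = 0.000445) and 0.85 ± 0.178 with all 6 libraries (adjusted p = 0.0881). Rab11b, its close copy, had 734, 684 and 575 normalized counts in midkine 3, 4 and 5, against 570.3, 575 and 577 in control 1, 2 and 4. Here midkine 5 sat inside the narrow control range, and this is the sole one of the 20 called members whose groups overlap with all 6 libraries. For Rab11b, limma gave a log2 fold change of 0.30 without midkine 5 (adjusted p = 0.0455) and 0.20 with all 6 libraries (adjusted p = 0.458). Rab8b, which moves vesicles to the cell surface, had 855, 1010.2 and 729 normalized counts in midkine 3, 4 and 5, against 602, 674 and 566 in control 1, 2 and 4, with no overlap. Rab8b differed by 0.60 on the log2 scale without midkine 5 (limma adjusted p = 0.00116) and by 0.48 with all 6 libraries (adjusted p = 0.186). Its paralog Rab8a had 1224, 1217 and 1190.0 normalized counts in midkine 3, 4 and 5, against 1285, 1279 and 1248 in control 1, 2 and 4. The midkine values lay just under the lowest control, and the difference did not pass. Rab14, which links the Golgi, endosomes and phagosomes, had 2854 to 3489.9 in midkine and 2732 to 3176 in control libraries, and Rab10, which brings vesicles to the surface, had 1393 to 2082 in midkine and 1739 to 1777 in control libraries. Both overlapped between the groups. Rab12, Rab13, Rab35 and Rab4b overlapped as well, at 31.9 to 477 normalized counts over the 6 libraries, and Rab4a had 11.6, 12.7 and 14.5 in the midkine libraries, against 10.3, 9.20 and 5.92 in the controls, past no threshold.

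Of 13 GTPases of traffic between the endoplasmic reticulum and the Golgi, Rab1a, Rab6a, Rab18 and Rab2a rose without midkine 5 (30.8%). Rab43 fell (7.69%). Over all genes tested the same fit called 9.92% higher and 8.52% lower. Summed over the 13 genes the normalized counts were 4254, 4715 and 5479 in midkine 3, 4 and 5. In control 1, 2 and 4 the sums were 3591, 3494 and 3771. Rab1a, which tethers vesicles arriving at the Golgi, had 1109.8, 1223 and 1153 normalized counts in midkine 3, 4 and 5, against 756, 768 and 874 in control 1, 2 and 4. The midkine values were tight and all above the controls. For Rab1a, limma gave a log2 fold change of 0.55 ± 0.105 (SE) without midkine 5 (adjusted p = 0.00140) and 0.54 ± 0.139 with all 6 libraries (adjusted p = 0.114). Rab6a, which acts within the Golgi, had 806, 938 and 1374 normalized counts in midkine 3, 4 and 5, against 646, 587 and 689 in control 1, 2 and 4. The log2 fold change of Rab6a was 0.44 without midkine 5 (limma adjusted p = 0.00910) and 0.66 with all 6 (adjusted p = 0.162). Rab18, of the endoplasmic reticulum and lipid droplets, had 356, 452 and 654 in the midkine libraries, against 320.0, 286 and 309 in the controls. For Rab18, limma gave a log2 fold change of 0.39 without midkine 5 (adjusted p = 0.0350) and 0.63 with all 6 libraries (adjusted p = 0.193). Without midkine 4 as well, the log2 fold change of Rab18 was 0.22 and the call was lost. In both Rab6a and Rab18 the groups were separate and midkine 5 was highest. Rab2a, which acts at the early Golgi, had 1001, 1085 and 1181 normalized counts in midkine 3, 4 and 5, against 864, 813 and 862 in control 1, 2 and 4, with no overlap. For Rab2a, limma gave a log2 fold change of 0.30 without midkine 5 (adjusted p = 0.0421) and 0.36 with all 6 libraries (adjusted p = 0.213). Rab1b had 347, 399 and 562 in the midkine libraries, against 301, 275 and 318 in the controls, without overlap but past no threshold (adjusted p = 0.0706 without midkine 5 and 0.217 with all 6, limma).

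Rab43 was the one GTPase called lower. It acts in the Golgi, and in mouse dendritic cells it is needed for full cross-presentation of cell-associated antigen. The gene (chromosome 6, 87788853 to 87812164, minus strand of GRCm38) had 326, 310.4 and 314 normalized counts in midkine 3, 4 and 5, against 404, 436 and 415 in control 1, 2 and 4. The 3 midkine values lay within a narrow band under the lowest control. Rab43 differed by −0.39 ± 0.111 (SE) on the log2 scale without midkine 5 (limma adjusted p = 0.0189) and by −0.40 ± 0.137 with all 6 libraries (adjusted p = 0.182). Summed markers of conventional dendritic cells were also lower in all 3 midkine libraries, as given above, and their part in the Rab43 values was not tested. Rab39, which acts on phagosomes and the Golgi, was low in counts, with 19.3, 22.2 and 10.9 in the midkine libraries, against 27.7, 23.5 and 22.7 in the controls, and did not pass (log2 fold change −0.52 with 6 libraries, adjusted p = 0.388, and −0.23 without midkine 5, adjusted p = 0.618, limma). Rab2b, Rab6b and Rab33b overlapped between the groups, at 32.7 to 137 normalized counts. The sparse Rab19, Rab30 and Rab36 did so at 5.28 to 40.1.

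Of the remaining GTPases, Rab28, a farnesylated GTPase of cilia and photoreceptors, had 126, 117 and 129 normalized counts in midkine 3, 4 and 5, against 74.9, 74.7 and 61.1 in control 1, 2 and 4. The groups were well apart, and midkine 5 lay close to midkine 3 and 4. For Rab28, limma gave a log2 fold change of 0.79 ± 0.172 (SE) without midkine 5 (adjusted p = 0.00381) and 0.82 ± 0.176 with all 6 libraries (adjusted p = 0.0881). Rab40c, part of a ubiquitin ligase, had 142 to 171 in midkine and 131 to 151 in control libraries, and Rab23, an inhibitor of Hedgehog signalling, had 18.2 to 28.0 in midkine and 23.5 to 48.3 in control libraries. Neither passed.

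**Figure D2:**
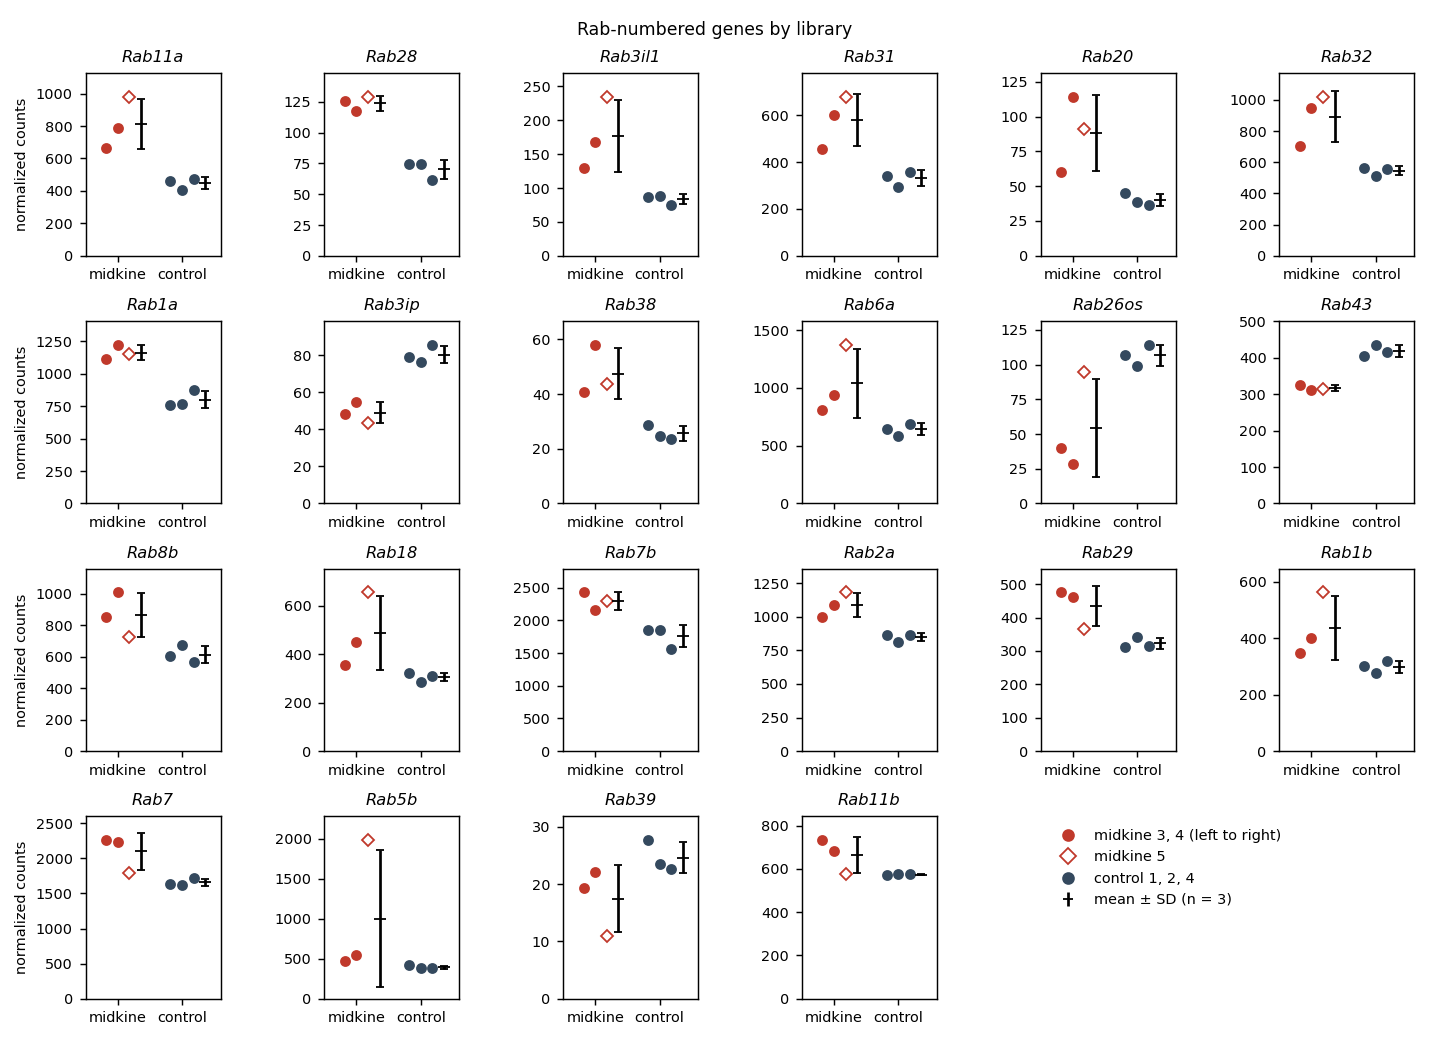
Normalized counts per library (y axis, from 0) of the 22 Rab-numbered genes named by the rule, with the midkine libraries in red (midkine 5 as an open diamond) at the left of each panel and the controls in dark blue; black bars are mean ± SD, n = 3. Rab5b reaches 1986 in midkine 5 against 474 and 546 in midkine 3 and 4, while Rab1a, Rab28 and Rab43 have midkine values that lie close together.

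The Rab-numbered genes that are not GTPases moved in no single direction. Their median difference on the log2 scale was −0.04 with 6 libraries and 0.09 without midkine 5, over 12 genes. The 2 exchange factors, both of which activate Rab8 in cells, went opposite ways. Rab3il1, also called GRAB (chromosome 19, 10001669 to 10038380, plus strand of GRCm38), had 129.5, 168 and 234 normalized counts in midkine 3, 4 and 5, against 87.2, 87.9 and 74.95 in control 1, 2 and 4. The log2 fold change of Rab3il1 was 0.82 ± 0.168 (SE) without midkine 5 (limma adjusted p = 0.00244) and 1.04 ± 0.236 with all 6 (adjusted p = 0.0920). Rab3ip, also called Rabin8 (chromosome 10, 116905784 to 116950769, minus strand of GRCm38), had 48.3, 54.9 and 43.6 normalized counts in midkine 3, 4 and 5, against 79.0, 76.7 and 85.8 in control 1, 2 and 4. For Rab3ip, limma gave a log2 fold change of −0.63 ± 0.183 (SE) without midkine 5 (adjusted p = 0.0222) and −0.71 ± 0.190 with all 6 libraries (adjusted p = 0.125). For both genes the groups did not overlap. Rab26os, a non-coding RNA inside the Rab26 gene on the opposite strand (chromosome 17, 24528248 to 24528744, plus strand of GRCm38), had 39.6, 28.5 and 94.4 normalized counts in midkine 3, 4 and 5, against 107, 99.2 and 114 in control 1, 2 and 4. It was low in midkine 3 and 4 and just under the controls in midkine 5. For Rab26os, limma gave a log2 fold change of −1.64 ± 0.195 (SE) without midkine 5 (adjusted p = 3.6e-05) and −1.15 ± 0.393 with all 6 libraries (adjusted p = 0.182). The small nucleolar RNA Snord60 overlaps its exons on the same strand, and how reads of that stretch were counted was not given. Rab5if had 1024 to 1681 in midkine and 855 to 975 in control libraries without overlap but did not pass (adjusted p = 0.0661 without midkine 5 and 0.228 with all 6, limma). Of the Rab11 effectors, Rab11fip5 had 131 to 163 in midkine and 103 to 119 in control libraries, without overlap, and Rab11fip1, Rab11fip2 and Rab11fip4 overlapped. Rab11fip3 was at 3.63 to 9.67 in midkine and 13.3 to 19.4 in control libraries. Of the GTPase-activating complex for Rab3, Rab3gap1 had 485 to 557 in midkine and 574 to 599 in control libraries, without overlap, and Rab3gap2 had 79.0 to 176 in midkine and 108 to 153 in control libraries, with overlap. Rab10os overlapped between the groups. None of these passed the test in either fit.

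**Figure D3:**
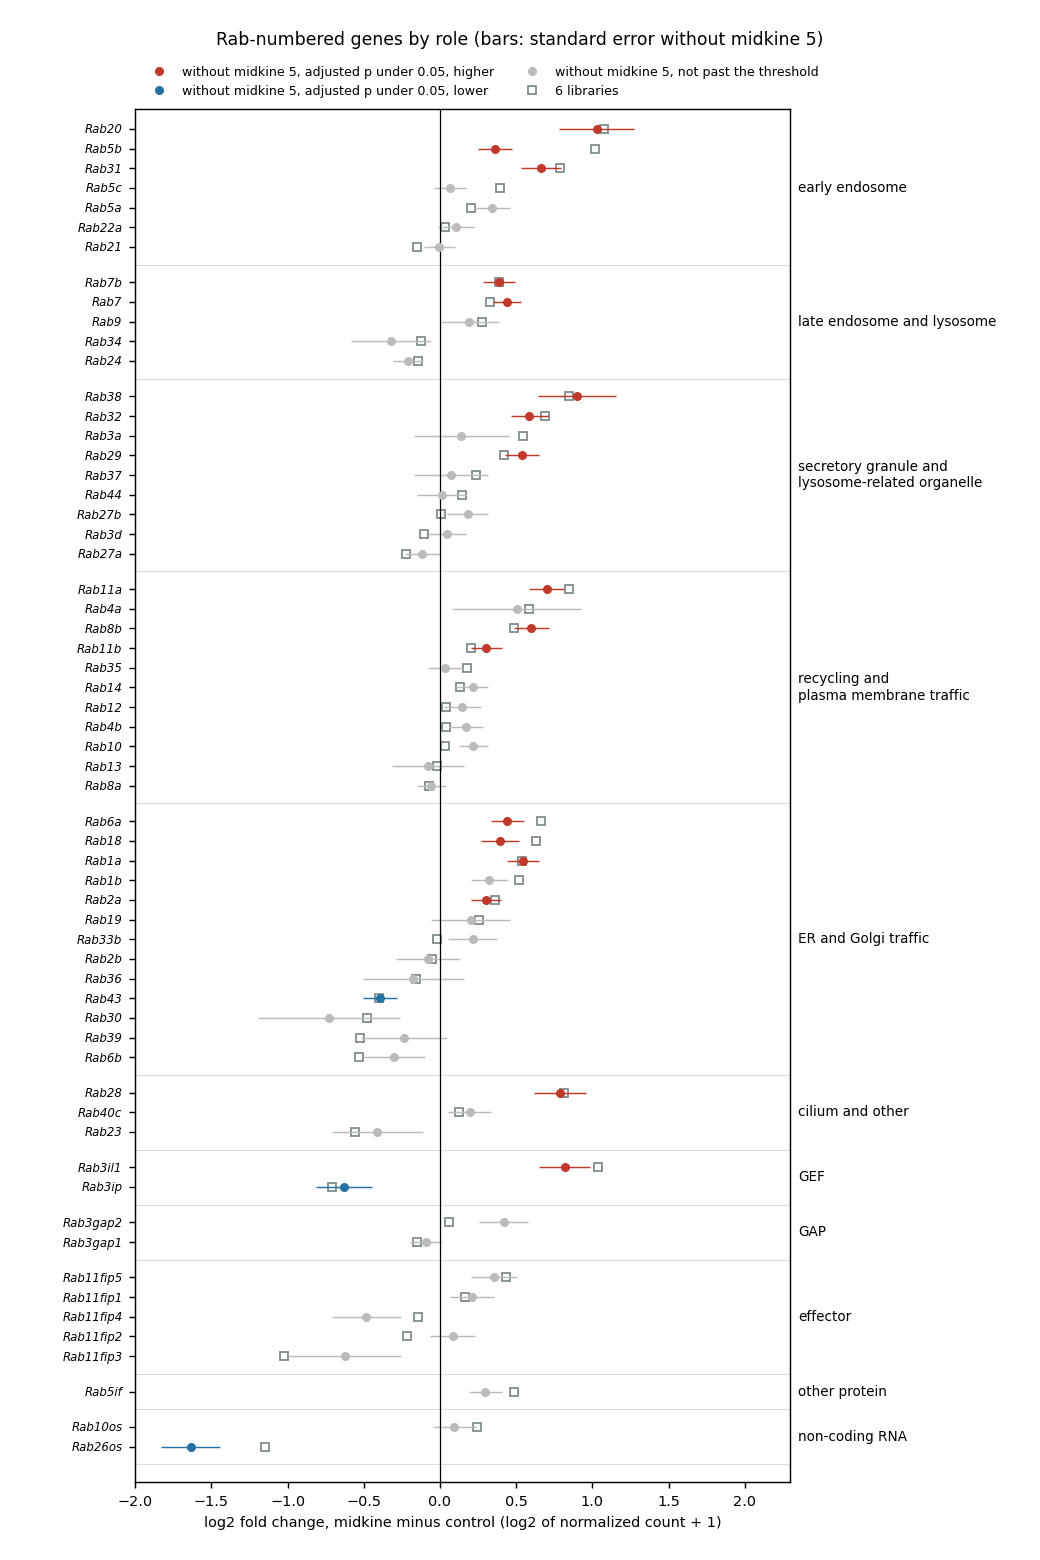
Log2 fold change, midkine minus control, of the 60 Rab-numbered genes tested, grouped by role down the page; circles with standard error bars are limma without midkine 5 (red higher, blue lower at an adjusted p under 0.05, grey not past it) and open squares are limma with all 6 libraries, where 0 genes passed. Circle and square lie far apart for Rab5b (0.36 and 1.02) and Rab26os (−1.64 and −1.15), and close together for Rab1a, Rab7b, Rab28 and Rab43.

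The split of reads between close paralogs is read within each library and so does not depend on the scaling between libraries. For 5 of 11 subfamilies the share of a paralog did not overlap between the groups. Among these 5, Rab6 was not in the list of subfamilies planned beforehand. Rab5 is counted through Rab5c alone, since the shares of Rab5a and Rab5b overlapped. As a background, the levels of 30.8% of all genes tested did not overlap, and no such share was computed for splits of other gene families. Of the reads of Rab8a and Rab8b, Rab8b made up 41.1, 45.4 and 37.98% in midkine 3, 4 and 5, against 31.9, 34.5 and 31.2% in control 1, 2 and 4. Of the reads of Rab11a and Rab11b, Rab11a made up 47.6, 53.6 and 63.0% in midkine 3, 4 and 5, against 44.6, 41.4 and 45.2% in control 1, 2 and 4. In both subfamilies the midkine libraries lay above each control, and midkine 5 was the highest for Rab11a and the lowest of the 3 for Rab8b. Of the reads of Rab6a and Rab6b, Rab6b, the form best known from neurons, made up 6.82, 4.82 and 2.32% in midkine 3, 4 and 5, against 9.35, 11.1 and 7.66% in control 1, 2 and 4. Of the reads of Rab2a and Rab2b, Rab2b made up 4.34, 5.34 and 4.55% in midkine 3, 4 and 5, against 5.61, 7.02 and 6.02% in control 1, 2 and 4. Both minor forms had a smaller part in each midkine library than in any control. Rab5c, the leading Rab5, made up 76.2, 73.9 and 70.02% in midkine 3, 4 and 5, against 78.7, 76.7 and 80.5% in control 1, 2 and 4. Within the Rab5 reads, Rab5b took 26.2% in midkine 5 and 12.7 and 15.7% in midkine 3 and 4, against 11.2 to 12.8% in the controls. The splits of Rab1a and Rab1b, Rab3a and Rab3d, Rab4a and Rab4b, Rab7, Rab7b and Rab9, Rab27a and Rab27b, and Rab32 and Rab38 overlapped between the groups. Wilson 95% intervals of a single library were at most 6.22 percentage points wide for Rab11, 4.26 for Rab8, 4.86 for Rab6, 3.44 for Rab2 and 3.05 for Rab5, and cover counting error only. In each of these 5 subfamilies the intervals of the closest midkine and control libraries overlapped. For Rab8b they were 35.9 to 40.1% in midkine 5 and 32.4 to 36.7% in control 2. No test was made on these shares.

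**Figure D4:**
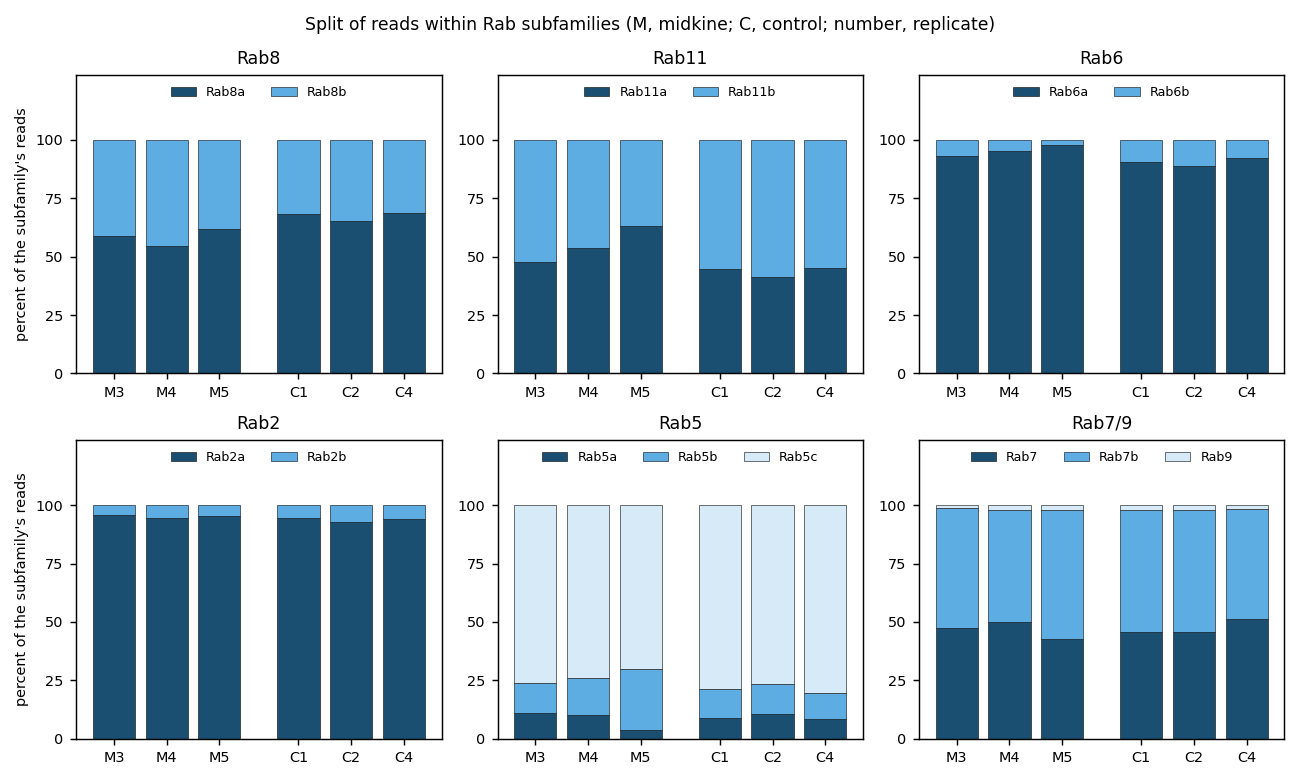
Percent of a subfamily's reads (y axis) in each paralog, by library, with midkine 3, 4 and 5 (M) left of control 1, 2 and 4 (C). The Rab8b part is 37.98 to 45.4% in midkine and 31.2 to 34.5% in control libraries, and the Rab7, Rab7b and Rab9 bars overlap between the groups.

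The machinery around the GTPases was read from 4 gene lists. Of the 11 genes of GDP dissociation inhibitors, escort, prenylation and related membrane proteins, 0 were called by limma in either fit. At an unadjusted p under 0.05 with 6 libraries 1 was higher and 1 lower, and edgeR and DESeq2 called 0. Of all genes tested, limma called 18.4% without midkine 5. At that unadjusted p with 6 libraries, 10.4% of all genes were higher and 9.3% lower. Rabggta, the alpha subunit of the enzyme that prenylates Rabs, had 35.8, 53.8 and 55.4 in the midkine libraries, against 34.9, 25.6 and 26.6 in the controls, and Chml, a Rab escort protein, had 124, 131 and 74.4 in the midkine libraries, against 158, 147 and 179 in the controls, both without overlap and past no threshold (adjusted p = 0.126 and 0.116 without midkine 5, limma). Yipf5 and Rabac1, membrane proteins that bind Rabs, did not pass either, at 330.4 to 848 normalized counts over the 6 libraries. Of 51 exchange factors tested, members included, 7 were called higher and 2 lower without midkine 5 (17.6% of the list, against 18.4% of all genes tested). Rin2, an exchange factor for Rab5, had 423, 573 and 456 normalized counts in midkine 3, 4 and 5, against 303, 313 and 302 in control 1, 2 and 4. Rin2 differed by 0.69 on the log2 scale without midkine 5 (limma adjusted p = 0.00115) and by 0.65 with all 6 libraries (adjusted p = 0.108). Trappc1, a subunit of the TRAPP complex that activates Rab1, had 172, 188 and 196 in the midkine libraries, against 127, 131 and 136 in the controls. For Trappc1, limma gave a log2 fold change of 0.45 without midkine 5 (adjusted p = 0.0303) and 0.49 with all 6 libraries (adjusted p = 0.158). Of 39 GTPase-activating proteins, 2 were called higher, Tbc1d1 and Tbc1d20, and 1 lower, Tbc1d31 (7.69% of the list, against 18.4% of all genes tested). Tbc1d1, which acts on Rab10 in the traffic of glucose transporters, had 257, 297 and 489 in the midkine libraries, against 199, 194 and 204 in the controls. The log2 fold change of Tbc1d1 was 0.47 without midkine 5 (limma adjusted p = 0.0145) and 0.74 with all 6 (adjusted p = 0.168). Tbc1d20, which switches off Rab1, had 209, 258 and 354 in the midkine libraries, against 147, 175 and 187 in the controls. For Tbc1d20, limma gave a log2 fold change of 0.46 without midkine 5 (adjusted p = 0.0367) and 0.66 with all 6 libraries (adjusted p = 0.178). Tbc1d31, which carries the same domain and sits at centrioles, had 122, 116 and 68.1 in the midkine libraries, against 192, 185 and 183 in the controls. For Tbc1d31, limma gave a log2 fold change of −0.65 without midkine 5 (adjusted p = 0.00291) and −0.91 with all 6 libraries (adjusted p = 0.120). None of these 5 genes overlapped between the groups. Tbc1d8 did not pass, with 106 to 138 in midkine and 156 to 221 in control libraries. The further exchange factors called, named after their values were seen, were Sbf2, Trappc2l, Trappc4 and C9orf72, higher, and Dennd4a, lower.

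Of 60 effectors and tethers tested, 5 were called higher and 1 lower without midkine 5 (10.0% of the list, against 18.4% of all genes tested). Rilpl2, which binds Rab8 and Rab10 once LRRK2 has phosphorylated them, had 678, 829.7 and 1255 normalized counts in midkine 3, 4 and 5, against 298, 361 and 291 in control 1, 2 and 4. Rilpl2 differed by 1.25 ± 0.126 (SE) on the log2 scale without midkine 5 (limma adjusted p = 7.11e-06) and by 1.49 ± 0.234 with all 6 libraries (adjusted p = 0.0757). It had the largest log2 fold change with 6 libraries among the 16 pathway genes named by the rule. Plekhm2, which couples lysosomes to kinesin, had 981, 1058 and 1633 normalized counts in midkine 3, 4 and 5, against 631, 665 and 681 in control 1, 2 and 4. For Plekhm2, limma gave a log2 fold change of 0.63 without midkine 5 (adjusted p = 0.000374) and 0.86 with all 6 libraries (adjusted p = 0.0982). Ocrl, a lipid phosphatase that many Rabs bind, had 126, 149.9 and 157 in the midkine libraries, against 85.1, 76.7 and 83.8 in the controls. For Ocrl, limma gave a log2 fold change of 0.74 without midkine 5 (adjusted p = 0.00390) and 0.80 with all 6 libraries (adjusted p = 0.0881). None of these 3 genes overlapped between the groups. Appl2, an effector of Rab5, had 164 to 212 in midkine and 133 to 149.7 in control libraries and did not pass. The remaining genes called here, named after their values were seen, were Plekhm1, an effector of Rab7, and Coro1c, a coronin that binds actin, both higher, and Lrrk1, a kinase that phosphorylates Rab7, lower. Leaving out members, 13 of 152 genes of the 4 lists were called higher (8.55%) and 3 lower (1.97%) without midkine 5, against 9.92% and 8.52% of all genes tested, and the share called higher was near that of all genes. The 16 became 5 without midkine 4 as well, and 0 with no variance trend in limma. With all 6 libraries limma and edgeR each called 0 of the 152 genes, against 0.0% and 0.0738% of all genes tested. At an unadjusted p under 0.05 in limma, 18 were higher and 4 lower, where 10.4% of all genes were higher and 9.3% lower. DESeq2 called 5, where it called 5.92% of all genes with an adjusted p.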

How the data were processed

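RNA libraries came from the QuantSeq 3′ FWD kit, per the labels' protocols. According to the submitters' processing notes, the build was GRCm38, HTSeq and DESeq2 were used, and further tools were SAMtools 0.1.19, Bowtie 1.0.0, TopHat2 2.0.10 and FastQC 0.11.0. The authors deposited 1 normalized count per gene symbol and library, a signal made by dividing gene counts by a size factor. Which annotation release, strand setting or rule for multiply mapped reads they used was not given in the sources used here. Whole reads came back for 100% of values on dividing by 1 step per library (tolerance 0.01 reads), with size factors between 0.947 and 1.10. A floor of 3 reads was at most 3.17 normalized counts.

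Normalized counts were tested on the log2(value + 1) scale with limma 3.58.1 (variance trend, R 4.3.3), over 13543 genes with a mean of at least 5 in the 6 libraries. Two-sided p-values were adjusted over all genes tested (Benjamini-Hochberg) and called under 0.05. Fold changes on this scale understate the change of low genes. The fit was made with 6 libraries (3 against 3) and without midkine 5 (2 against 3). Recovered reads went into edgeR 4.0.16 with TMM scaling and the quasi-likelihood test, and into DESeq2 1.42.0. The limma fits were run on simulated counts in which no library stood apart. Changes of 1 on the log2 scale were recovered for 45% of genes with 6 libraries (14 false calls). Without midkine 5 it was 87% (9 false calls). Changes of 2 were recovered for 96% and 100%. Since midkine 5 does stand apart, these rates need not hold for the real libraries. The members, role groups, lists and the fit without midkine 5 were chosen with earlier results of these data known.

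Values by library are given for members at a mean of at least 20 normalized counts that were called in either fit, or whose groups do not overlap with a log2 fold change of at least 0.5 in size. Of the rest, up to 3 per role group with the highest mean are described, and others are given to account for every member. In each pathway list up to 4 genes were taken by smallest p with 6 libraries. Positions come from GENCODE M21 (GRCm38), where all 62 members matched 1 gene. Exons of 25 members overlap another gene. Where that gene lies on the opposite strand, its reads cannot be told apart without the strand setting. Where it lies on the same strand, no strand setting separates them. Reads shared by near-identical paralogs may have been split. Of the 20 members called, those with an exon overlap are Rab11a, Rab11b, Rab18, Rab20, Rab26os, Rab43, Rab6a and Rab7. The overlap is on the same strand for Rab11a, Rab18, Rab26os and Rab43.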

Additional observations from a re-analysis of the deposited data

How the results depend on the processing

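With 6 libraries, 0 members and 0 further pathway genes were called under each alternative run except DESeq2 (7 members, 5 pathway genes) and leaving out midkine 5. Of all genes, DESeq2 called 5.92% with 6 libraries, and limma called 18.4% without midkine 5. On leaving out 1 library at a time, the counts ranged from 0 to 20 members and from 0 to 16 pathway genes. Without midkine 5, the 20 members and 16 pathway genes became 1 and 0 with no trend in the variance estimate. They ranged from 7 to 17 and from 5 to 19 when 1 more library was left out, lowest without midkine 4; the cause was not tested. The share of all genes called in those smaller fits is not given here. Without midkine 5, edgeR called 21 members, the 20 of limma and Rab5a, and DESeq2 called 14, all among the 20. The median log2 fold change of the GTPases was 0.14 with quantile normalization and 0.16 when scaled by library totals, and 0.14 to 0.20 with 1 library left out, lowest without midkine 3. Members whose groups do not overlap numbered 27 with 6 libraries and 29 to 38 with 1 library left out, which cannot lower this count. Without midkine 5 it was 38 of 60 members (63.3%), where 47.6% of all genes tested did not overlap. The share of reads in Rab GTPases differed by 0.0681 to 0.0832 percentage points with 1 library left out, midkine minus control. The 22 members described by library and the 16 pathway genes taken by the rule kept their direction under each alternative run. These genes were picked by calls, separate groups or small p in the same libraries, so a kept direction is no independent support. Members that did not pass could change sign, among them Rab10, Rab14, Rab33b, Rab34 and Rab3d with 6 libraries and Rab5c and Rab21 without midkine 5. Of the single-gene results, without midkine 5 85 lost a call, 4 gained one and 415 did neither, and with 6 libraries 40 gained one and 500 did not. No paired analysis was possible because the groups share only replicate number 4. Genes at a few reads per library, such as Rab15 and Rab26, are limited by depth.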
